A study of Mus musculus with 8 samples.

Results

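The 10 genes described here encode transporters of the enterocyte surface, taken by name as 8 members of the sodium-coupled SLC5 family and the facilitative hexose carriers Slc2a2 and Slc2a5. They were found through probe sets annotated with exactly 1 gene symbol, which gave 15 probe sets of 34958 with a single symbol and 45101 on the array. The study measured RNA of whole small intestine from mouse fetuses at 18.5 days post coitum on Affymetrix MOE430 2.0 arrays, in 4 wild-type samples and 4 knockouts of Plagl2, a zinc finger transcription factor, with 1 array per sample. The series title places the study in chylomicron metabolism, and the contrast between genotypes addresses here how the sugar and solute carriers differed when this factor was missing. It is not stated what portion of Plagl2 was removed or whether the knockout was restricted to a tissue. Which strain was used and whether litters were separate are also not stated. The p-values treat these 8 samples as independent, which could not be checked, and apply to these samples only. The name of the family is only partly about sugar. Slc5a1, Slc5a9, Slc2a2 and Slc2a5 encode sugar carriers, and Slc5a4a and Slc5a4b relatives that bind glucose and are thought to act more as sensors. Slc5a11 carries inositol, Slc5a8 and Slc5a12 carry monocarboxylates such as lactate, and Slc5a6 carries biotin and other vitamins.

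Enterocytes take up glucose and galactose across the brush border with sodium through SGLT1, the product of Slc5a1, and the sodium is pumped out at the basolateral membrane. Fructose enters passively through GLUT5, the product of Slc2a5, and sugars leave the cell for the blood mainly through GLUT2, the product of Slc2a2. In rodents Slc5a1 serves the milk diet from birth on, whereas Slc2a5 is known to stay low until weaning and to be induced by dietary fructose.

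Plagl2 signal was lost in the knockouts, at 799 ± 96.3 (SD, n = 4) in wild-type and 5.5 ± 4.43 in knockout samples. Signals are linear, have the same trimmed mean in each array, and array medians were 36 to 42. Knockout replicates 2 and 3 had Xist signals of 1828 and 1410, as in females, against at most 47 in the other 6 arrays, so sex was not balanced. Control probe sets at the 3' end, relative to those at the 5' end, were 0.064 higher in knockouts on the log2 scale (exact permutation p = 0.0286, the smallest that 4 against 4 allows). Knockout replicate 4 carried liver RNA markers, with a summed signal of 7063 over 7 genes against 102 to 960 in the other knockouts and 297 to 588 in wild-types. Titles and source names give 4 knockouts, although the RNA extraction notes name wild-type intestine for every sample.

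Promoter sequences (GRCm38.p6, from 250 bases before to 50 after a listed start) were at hand for 8 of the 10 genes. For Slc5a11 and Slc5a6 the windows lay wholly inside the RefSeq gene span (chr7:123214594-123274388 and chr5:31036036-31048924). Sequence before those spans was not searched. The stretches below are shown because Plagl2 belongs to the PLAG family. Its binding consensus joins a G-rich core and a run of G that are 6 to 8 bases apart. Capitals mark the match, here on the strand opposite to the gene for the first 4 and on the gene's own strand for the last.
Slc2a5, chr4:150119175-150119202, gene on the plus strand: ccccctCCCCCGCCCCCGCCCCctaccc
Slc2a2, chr3:28697693-28697720, gene on the plus strand: aaaagaCCCCACAGGCTGCCCCtctcag
Slc5a1, chr5:33104160-33104187, gene on the plus strand: tcaccaCCCCTTAGCAGGCCCCtccctg
Slc5a8, chr10:88885823-88885850, gene on the plus strand: caactgCCCTTCGATCCGCCCCcaccgc
Slc5a6, chr5:31048120-31048146, gene on the minus strand: ccgggcGAGGCGGGGATTGGGcagggc
The consensus occurred in 5 of the 8 genes, against 22.7% of all 32851 promoters of this length, which include several per gene for some genes. Slc2a5 held 7 matches, 6 of them overlapping one another, in a promoter of 65.3% G and C, and promoters of the 8 genes ranged from 48% to 70.3%. Slc5a6 has 2 promoters in the table, and only the one shown held matches. The 5 genes with a match were called as higher (Slc2a5, Slc5a8), lower (Slc2a2, Slc5a6) or not at all (Slc5a1) in the knockout. Slc5a4a, Slc5a4b and Slc5a11, all called, had no match in their windows, and that of Slc5a11 lay inside the gene.

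The glucose sensor pair Slc5a4a and Slc5a4b is shown for 2 sequences that bind intestinal regulators, the CDX2 core TTTAT and the HNF1 core GTTAAT, each searched on both strands.
Slc5a4b, TTTAT 135 bases before the start, chr10:76111143-76111159, minus strand: ctgactTTTATcccata
Slc5a4a, TTTAT 188 bases before the start, chr10:76147257-76147273, plus strand: tgcatcTTTATactgtg
Slc5a4a, GTTAAT on the opposite strand after the start, chr10:76147456-76147473: ctgatcATTAACtcagga
A further TTTAT of Slc5a4b, on the opposite strand after the start (chr10:76110977-76110993), is not shown. TTTAT was in 3 of the 8 genes and in 40% of all promoters, and GTTAAT in 1 of the 8 and in 7.1% of all. A match is a run of letters, and binding was not measured here.

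Of the 10 transporters, 5 were called as higher in the knockout (Slc5a12, Slc5a4b, Slc2a5, Slc5a8, Slc5a4a), 3 as lower (Slc5a11, Slc2a2, Slc5a6) and Slc5a1 and Slc5a9 were not called. A call is an adjusted p under 0.05 in limma over all 27022 probe sets that passed a filter on low values. Over all 12838 genes tested, 6.60% were called as higher and 8.50% as lower. All 10 genes and 14 of their 15 probe sets passed the filter, which uses the mean over both genotypes. Slc5a12 (wild-type means of 7 and 5.25 in its probe sets) and Slc5a8 (16.8) were under its cut of about 23 in wild-types. They passed through their knockout signals (means of 477 and 271, and 57). Without the filter both genes were also called as higher (adjusted p = 5.24e-06 and 0.0292 in limma). In 8 of the 15 probe sets, from 7 genes, no knockout array overlapped any wild-type array, which was so for 17.0% of all tested probe sets. The median log2 fold change of the 10 genes was 0.78, against 0.03 over all genes tested. In bulk intestine a lower signal from fewer cells of a type and from less RNA per cell cannot be told apart.

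**Figure D1:**
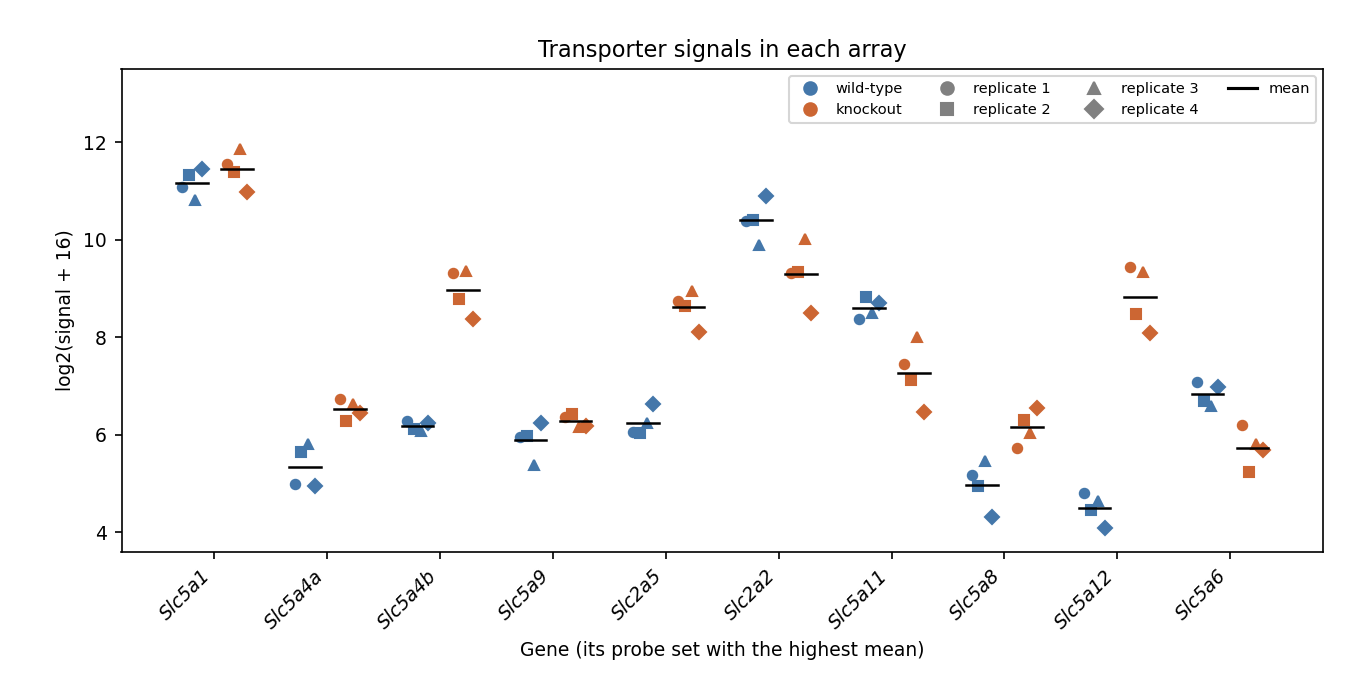
Signal of each transporter on the log2(signal + 16) scale in every array, for the gene's probe set with the highest mean; points are arrays, shapes give the replicate number and bars the mean of 4 arrays. Slc5a4b, Slc2a5 and Slc5a12 lie far apart between genotypes, while the arrays of Slc5a1, Slc5a9 and Slc2a2 overlap. Levels of different genes come from different probes and are not comparable.

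Slc5a1, the main glucose entry of the gut, was bright in every sample. Its brightest probe set gave 2160, 2537, 1778 and 2796 in wild-type replicates 1 to 4 and 2998, 2647, 3688 and 2003 in knockout replicates 1 to 4. The groups overlapped, with knockout replicate 4 below all wild-types but replicate 3. The log2 fold change was 0.27 ± 0.18 (SE, 95% interval -0.11 to 0.66, adjusted p = 0.371), and a second probe set gave 0.48 ± 0.17 (0.10 to 0.85, adjusted p = 0.100). These 95% intervals reach from a fall of no more than -0.11 to a rise of 0.85. Slc5a1 was called only in the alternative with smooth muscle signal as a covariate, added after the data were seen and given further on.

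Slc5a4a and Slc5a4b encode SGLT3 proteins, relatives of SGLT1 that bind glucose and are thought to act as sensors more than as carriers, and the genes are neighbours on chromosome 10 with 1 predicted gene (Gm19217) between them. Slc5a4b gave 62, 54, 52 and 60 in wild-types and 620, 428, 642 and 316 in knockouts. The knockouts were all at least 5 times as bright as any wild-type, and the wild-type arrays were nearly level. The mean signal was 8.80 times as high (502 ± 157 against 57.0 ± 4.76, SD, n = 4; log2 fold change 2.77 ± 0.20, adjusted p = 3.66e-06), which ranked 17 from the top of 12838 genes. Slc5a4a was dim, with 16, 34, 40 and 15 in wild-types and 91, 62, 83 and 71 in knockouts. It also did not overlap between genotypes and rose by 1.17 ± 0.23 (adjusted p = 0.00501), a call lost when the ratio of 3' to 5' controls entered the fit (1.24 ± 0.36, adjusted p = 0.0794). The genes are close relatives, and whether probes of one also bind RNA of the other was not tested.

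Slc5a9 encodes SGLT4, a carrier of mannose and related sugars. Its brightest probe set gave 46, 47, 26 and 60 in wild-types and 66, 70, 56 and 57 in knockouts. The groups overlapped in this and the other 3 probe sets. The log2 fold change was 0.39 (95% interval -0.03 to 0.82, adjusted p = 0.233), and the other tested probe sets gave 0.35 and 0.24 (adjusted p = 0.326 and 0.760). The dimmest, with signals of 5 to 45, was under the filter (exact permutation p = 0.0857).

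Slc2a5, the fructose carrier, rose from a low level in every knockout. Its signals were 51, 50, 60 and 83 in wild-types and 412, 386, 476 and 262 in knockouts. No knockout came near a wild-type. Mean signal was 61.0 ± 15.3 in wild-type and 384 ± 89.7 in knockout (SD, n = 4), 6.30 times as high (log2 fold change 2.37 ± 0.19 SE, adjusted p = 9.10e-06), ranking 29 from the top of 12838 genes.

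Slc2a2, the basolateral hexose exit, moved the other way. Its signals were 1328, 1344, 930 and 1901 in wild-types and 626, 630, 1015 and 346 in knockouts. Knockout replicate 3 lay above wild-type replicate 3, so the groups overlapped. The mean was 2.10 times as high in wild-type (1376 ± 399 against 654 ± 275, SD, n = 4; log2 fold change -1.11 ± 0.28 SE, adjusted p = 0.0225), while the exact permutation test gave p = 0.0571. The call ended in 8 of 22 alternatives (adjusted p = 0.0533 to 0.0958), among them those that left out wild-type 1 (0.0604), 2 (0.0603) or 4 (0.0700) or knockout 1 (0.0533) or 2 (0.0553). Slc2a2 is also a gene of hepatocytes and pancreatic beta cells. Knockout replicate 4, the array with liver markers, had the lowest Slc2a2 signal of all 8, and without it the log2 fold change was -0.84 (adjusted p = 0.0337). Insulin signal (Ins2) was 8 to 129 in wild-types and 26 to 159 in knockouts, and its part in the result was not tested.

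Slc5a11, the sodium-coupled inositol carrier SMIT2, was lower in all knockouts. Its signals were 318, 439, 344 and 398 in wild-types and 159, 124, 243 and 73 in knockouts, without overlap. The mean was 2.50 times as high in wild-type (log2 fold change -1.33 ± 0.26 SE, adjusted p = 0.00538), and it was called in all 22 alternatives (adjusted p = 0.000652 to 0.0499).

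The monocarboxylate carriers Slc5a8 and Slc5a12 both rose. Slc5a12, the low-affinity lactate carrier, gave 12, 6, 9 and 1 in wild-types and 679, 339, 635 and 256 in knockouts. A second probe set gave 1, 14, 4 and 2 in wild-types and 308, 190, 445 and 140 in knockouts. Both were near the bottom of the signal range in every wild-type and clearly above it in every knockout. The log2 fold changes were 4.34 ± 0.29 (adjusted p = 2.36e-06) and 3.67 ± 0.31 (adjusted p = 1.36e-05). Slc5a8, the high-affinity relative, was dim in both genotypes, at 20, 15, 28 and 4 in wild-types and 37, 63, 50 and 78 in knockouts. The arrays did not overlap and the log2 fold change was 1.18 ± 0.27 (adjusted p = 0.0139). The call of Slc5a8 was lost when Xist signal entered the fit (adjusted p = 0.0773) and when both arrays with Xist signal were left out (0.0938), with a log2 fold change of 1.16 in both.

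Slc5a12, Slc5a8 and Slc5a11 are also genes of the kidney tubule. Of 6 kidney markers found, Slc22a6, Slc22a8, Umod and Slc12a1 gave at most 32 in any array and were under the filter, so they were not tested. The summed signal of the 6 was 160 to 233 in wild-types and 114 to 152 in knockouts. Of the 2 tested, Slc34a1 was not called (-0.06, adjusted p = 0.893) and Kap was called as lower (-0.65, adjusted p = 0.0355).

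Slc5a6, the sodium-dependent multivitamin carrier, was lower in the knockout. Its signals were 120, 88, 81 and 110 in wild-types and 58, 22, 40 and 36 in knockouts, without overlap. The log2 fold change was -1.10 ± 0.21 (adjusted p = 0.00466). The call ended when Xist signal entered the fit (-0.85, adjusted p = 0.0594), although leaving out both arrays with Xist signal kept it (-0.89, adjusted p = 0.0380).

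Because 16 was added to each signal, the size of a change of a dim gene depends on that number. With 1 and with 64 added, the log2 fold change was 6.08 and 2.84 for Slc5a12, 1.91 and 0.58 for Slc5a8, 1.62 and 0.65 for Slc5a4a, and -1.39 and -0.67 for Slc5a6. All 4 were called under both. Slc5a4b, Slc2a5 and Slc5a12 were called in all 22 alternatives.

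**Figure D2:**
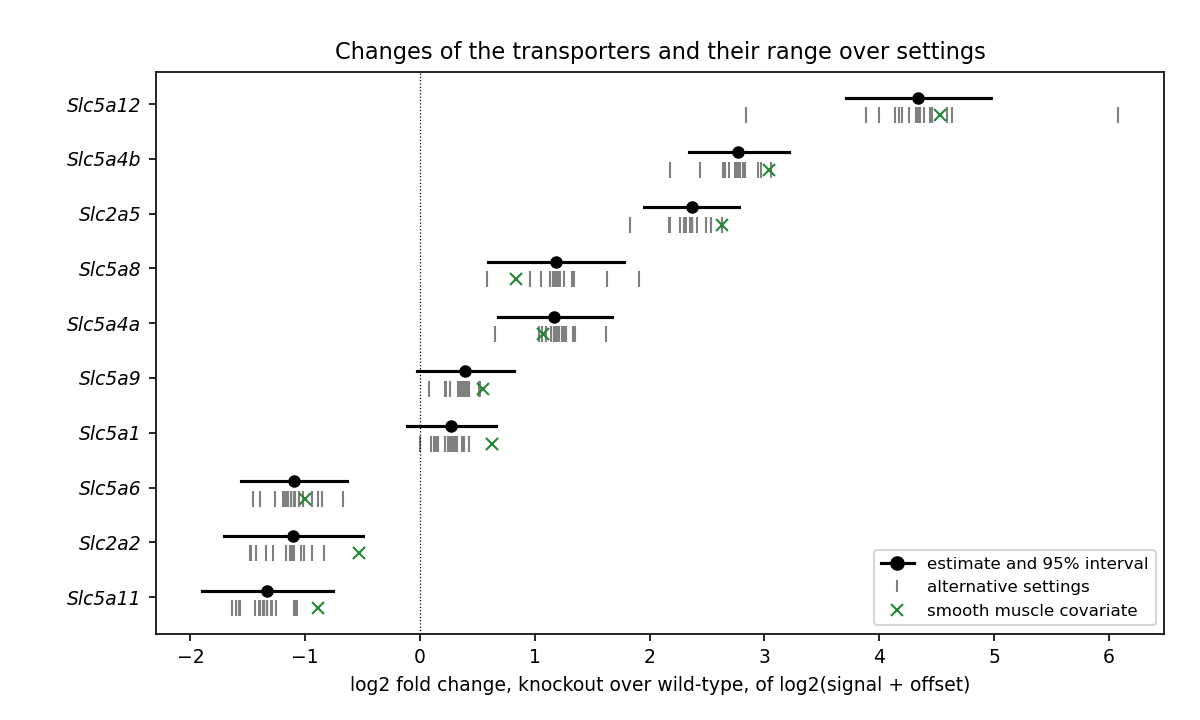
Log2 fold change of each transporter, knockout over wild-type; black points and lines are the estimate and its 95% interval, grey ticks the alternative settings and green crosses the fit with smooth muscle signal as a covariate. The 3 lower genes and the 5 higher genes keep their side of 0 in every setting shown, and the interval of Slc5a1 spans 0 from -0.11 to 0.66.

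Whether 2 carriers changed unequally was tested within each array, as the difference of their log2(signal + 16) values, for 8 pairs. The smallest exact permutation p that 4 against 4 arrays allow is 0.0286, which 7 of the 8 pairs reached (adjusted over the 8 pairs, p = 0.0327). The pairs were chosen with earlier results of these data known. Several set a called gene against one uncalled or called the other way, so a small p was likely beforehand. How often other gene pairs reach this p was not measured. The differences are of RNA signal, and transport was not measured. RNA signal of Slc2a5 rose over that of Slc5a1: Slc2a5 minus Slc5a1 was -5.27 to -4.56 in wild-types and -2.91 to -2.73 in knockouts, a shift of 2.09. The 4 knockouts agreed in this difference to an SD of 0.08, although Slc5a1 itself spread from -0.46 to 0.41 around its knockout mean. In wild-types the SD of the difference was 0.30, and Slc5a1 spread from -0.36 to 0.29. RNA signal of Slc2a2 fell relative to that of Slc5a1: Slc2a2 minus Slc5a1 was -0.92 to -0.55 in wild-types and -2.48 to -1.85 in knockouts, a shift of -1.38. Here the arrays did not overlap, unlike the signals of Slc2a2 alone. Slc2a5 against Slc2a2 shifted by 3.47, the widest of the 8.

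Among the other pairs, the inositol carrier Slc5a11 shifted by -1.61 and the vitamin carrier Slc5a6 by -1.37 against Slc5a1. Slc5a4a shifted by -1.60 against Slc5a4b, and Slc5a12 by 3.16 against Slc5a8. Wild-type signals of Slc5a12, Slc5a8 and Slc5a4a lie around or under the cut of the filter at 23, so the size of these shifts is uncertain. For Slc5a12 against Slc5a8 it was 4.16 with 1 added and 2.26 with 64, and for Slc5a4a against Slc5a4b -1.44 and -1.53. Slc5a9 against Slc5a1 shifted by 0.12 with overlapping arrays (-5.42 to -5.13 in wild-types, -5.68 to -4.79 in knockouts, exact permutation p = 0.6).

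**Figure D3:**
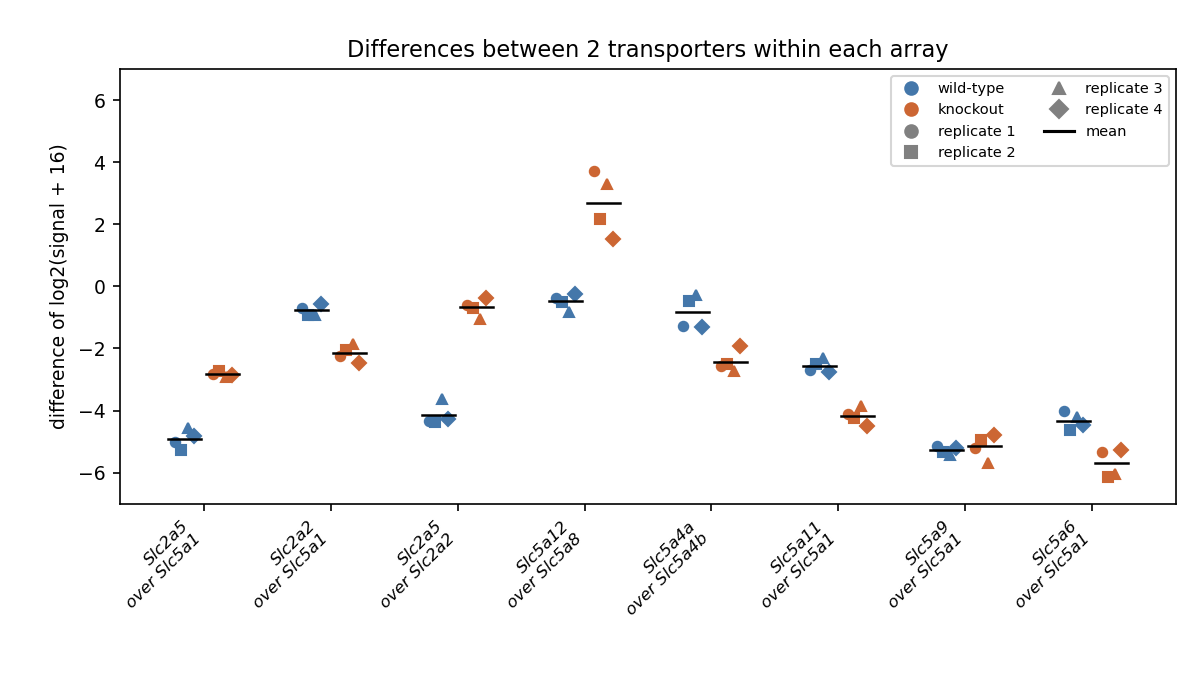
Difference of log2(signal + 16) between 2 transporters in each array, for the 8 pairs tested; points are arrays, shapes give the replicate number and bars the mean of 4. Wild-type and knockout arrays are apart in every pair except Slc5a9 over Slc5a1, and the knockouts of Slc2a5 over Slc5a1 lie between -2.91 and -2.73. The height of a pair reflects its probes, and only the distance between genotypes is compared.

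Part of the spread within a genotype was shared by many carriers and ran opposite to smooth muscle markers. Knockout replicate 4 was the lowest knockout in 6 of the 10 genes and knockout replicate 3 the highest in 5, while wild-type replicate 3 was the lowest wild-type in 5. From the genotype mean, Slc2a2 departed by -0.79 in knockout replicate 4 and 0.72 in knockout replicate 3, Slc5a11 by -0.79 and 0.75, and Slc5a1 by -0.46 and 0.41. The 5 smooth muscle markers departed by 0.38 and -0.49 in the same arrays, and by 0.37 in wild-type replicate 3 and -0.32 in wild-type replicate 4. The 8 enterocyte markers departed by -0.21 and 0.25 in knockout replicates 4 and 3. Slc5a8 did the reverse of Slc5a1 in these arrays, at 0.40 in knockout replicate 4 and 0.48 in wild-type replicate 3. In wild-type replicates 3 and 4, Slc5a4a (0.46 and -0.40) and Slc5a12 (0.14 and -0.41) also went with the smooth muscle markers.

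**Figure D4:**
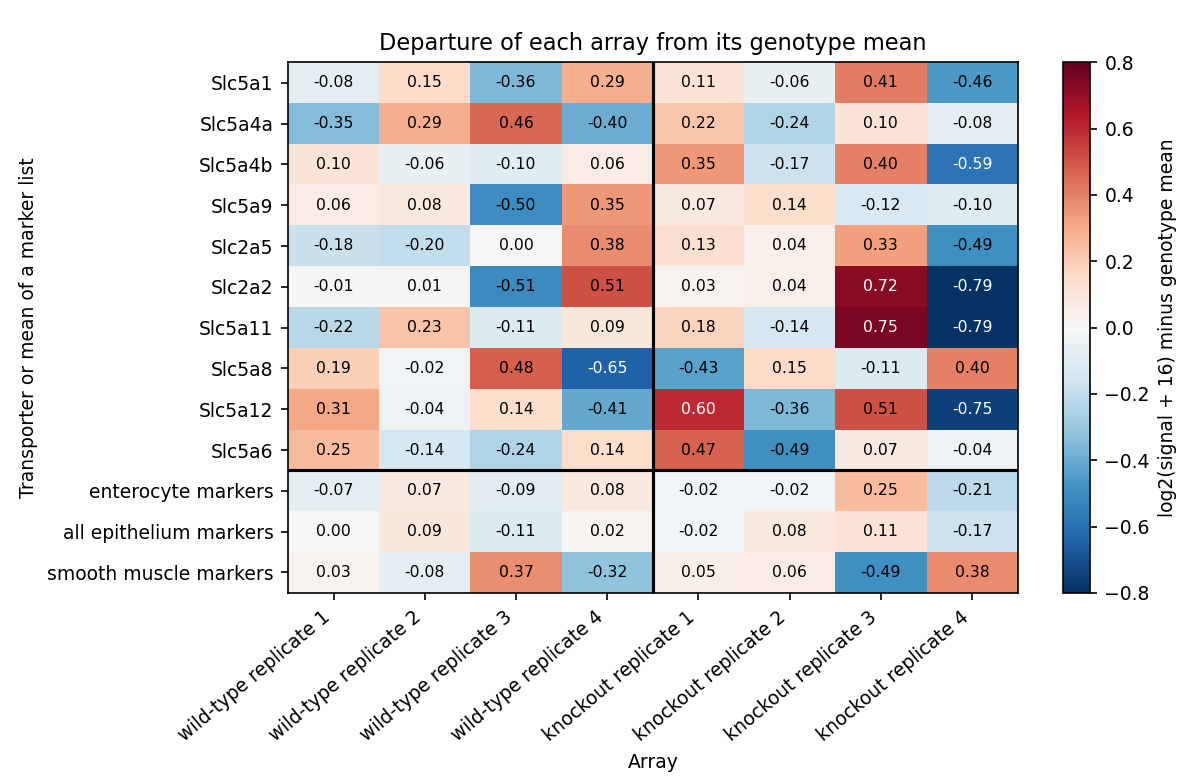
Departure of each array from the mean of its genotype on the log2(signal + 16) scale, for each transporter and for the mean of 3 marker lists. In knockout replicate 4 Slc5a1, Slc5a4b, Slc2a5, Slc2a2, Slc5a11 and Slc5a12 depart by -0.79 to -0.46 and smooth muscle markers by 0.38. In knockout replicate 3 the same 6 transporters are 0.33 to 0.75 high and smooth muscle markers 0.49 low.

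The labelled tissue was borne out by enterocyte markers, with Fabp2 at 9675 to 11163 and Cdh17 at 2861 to 3681 in every array. Summed enterocyte marker signal was 36256 to 41481 in wild-types and 40789 to 51160 in knockouts, with Krt20 (2.55) and Anpep (1.19) called as higher and none of the 8 as lower. The 5 general epithelial markers summed to 15010 to 17180 and 16210 to 19953, with Krt8 and Krt19 called as higher and Krt18 as lower. Of 3 macrophage markers, Csf1r (-2.38) and Adgre1 (-0.98) were called as lower, and the summed signal was 3066 to 4540 in wild-types and 727 to 1023 in knockouts. Of the markers that passed the filter on low values, none was called for liver (4 of 7 found), pancreas (5 of 5), stomach (2 of 4), red cells (1 of 2) or enteric neurons (2 of 2), and the others were not tested. The part of these markers in the transporter results was not tested, apart from smooth muscle. Summed smooth muscle signal was 7368 to 12594 and 9385 to 15114, with none of the 5 markers called. Their log2 fold changes were all above 0, at 0.07 to 0.51 (adjusted p = 0.125 to 0.860 in limma). This covariate may therefore carry part of the difference between genotypes. In the fit with the mean smooth muscle signal as a covariate Slc5a1 was called as higher, at 0.63 ± 0.08 (SE, adjusted p = 0.000398), its standard error falling from 0.18. Slc2a2 was called at -0.53 ± 0.11 (adjusted p = 0.00621) and Slc5a11 at -0.89 ± 0.20 (adjusted p = 0.0108), both smaller than without the covariate. Slc5a8 lost its call (0.84, adjusted p = 0.0744), and the other 6 kept theirs or stayed uncalled.

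Of 5 further SLC5 genes 3 were tested, of which 1 was called as higher and 1 as lower, and of 9 further SLC2 genes 8 were tested, of which 1 was called as higher. Over all genes these shares were 6.60% and 8.50%, and the counts in the lists below stand beside the same shares. The inositol carrier Slc5a3 rose (174, 194, 226 and 146 against 342, 288, 297 and 264; log2 fold change 0.65, adjusted p = 0.00964), in the direction opposite to Slc5a11. The iodide carrier Slc5a5 was called as lower (-1.04, adjusted p = 0.0158), but not without wild-type replicate 1 (0.0526) or 2 (0.0531) or with the smooth muscle covariate (0.0766). Slc5a3 was not called in the arrays without Xist signal (0.0594) or as the mean of its probe sets (0.0559). The called SLC2 gene was Slc2a9, a carrier of urate and hexoses, which went from 57, 52, 41 and 50 to 192, 254, 272 and 173 (log2 fold change 1.84 ± 0.16, adjusted p = 1.89e-05). The median was 0.11 in both lists. Slc2a1, the ubiquitous glucose carrier, had 0.28 and did not pass (adjusted p = 0.0905).

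Genes that digest sugars or handle them inside the cell split. Of 18 listed, 11 had a probe set and were tested, of which 4 were higher and 2 lower (median log2 fold change 0.24). Fbp1, the fructose bisphosphatase of gluconeogenesis, fell from 6282, 6347, 3512 and 6977 to 993, 1079, 1499 and 436 (-2.59 ± 0.32, adjusted p = 0.000219). Slc37a4, which brings glucose 6-phosphate into the endoplasmic reticulum for release of glucose, fell by 1.32 ± 0.14 (adjusted p = 6.28e-05). Neither group overlapped. The starch and maltose hydrolase Mgam rose (0.86, adjusted p = 0.000954), whereas lactase, Lct, had -0.40 and did not pass (adjusted p = 0.0817). Tkfc, which phosphorylates glyceraldehyde from fructose, was called as higher (0.75, adjusted p = 0.00968), but not when Xist signal entered the fit (0.0962). Fructokinase, Khk (0.91, adjusted p = 0.0284), and hexokinase Hk1 (0.49, 0.0228), named after their values were seen, were the other higher genes. Khk went from 165, 185, 137 and 218 to 430, 291, 518 and 208, with overlap at knockout replicate 4. Leaving out any 1 of wild-types 1, 2 and 3 and knockouts 1 and 3 ended the call of Khk (adjusted p = 0.0539 to 0.0880). For Hk1 the same held for wild-types 2 and 4 and knockouts 2 and 4 (0.0509 to 0.0744). Khk and Hk1 were also not called when Xist signal entered the fit (adjusted p = 0.161 and 0.114). The same was so in the arrays without Xist signal (0.13 and 0.121).

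The sodium pump and the apical scaffold were mostly not called. Of 8 tested, 2 were higher and 0 lower (median 0.15). Slc9a2, an apical sodium-proton exchanger, rose by 1.49 ± 0.24 (adjusted p = 0.00149) and the pump regulator Fxyd3 by 0.82 ± 0.13 (adjusted p = 0.00149). Atp1b1, a subunit of the sodium pump, had 0.10 and the scaffold Pdzk1 0.39 (adjusted p = 0.624 and 0.178), so the genes that build and use the sodium gradient were not called alike. With smooth muscle signal as a covariate, a fit added after the data were seen, 6 of the 8 were called as higher. Of all 27022 probe sets, 1662 were called as higher and 1735 as lower in that fit.

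Of 13 tested regulators of enterocytes and of the response to sugar, 2 were higher and 2 lower (median 0.10). Mlxipl, which encodes the carbohydrate-responsive factor ChREBP, was called as higher, from 143, 127, 94 and 123 to 269, 219, 294 and 172 (0.87 ± 0.17, adjusted p = 0.00608). That call ended in the arrays without Xist signal (0.0579). Klf4, a factor of differentiated epithelium, was higher by 0.93 (adjusted p = 0.0150) with the same dependence (0.126). The intestinal factor Cdx1 (-1.01, adjusted p = 0.00113) and Rab11a, of apical recycling (-1.07, adjusted p = 3.83e-05), fell. Hnf4a (0.10), Cdx2 (-0.38) and Txnip (0.17) did not pass (adjusted p = 0.622, 0.162 and 0.348).

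Among partners of monocarboxylate and vitamin transport 3 of 13 were higher and 1 lower (median 0.15). Slc16a3, a proton-coupled lactate carrier, rose from 48, 36, 50 and 54 to 116, 124, 205 and 134 (1.33 ± 0.18, adjusted p = 0.000493), in the direction of Slc5a12. Slc16a1 had 0.25 and did not pass (adjusted p = 0.120). Pcca, a biotin enzyme, rose (0.72, adjusted p = 0.00507) while the vitamin carrier Slc5a6 fell. The folate carriers Slc46a1 (1.61, adjusted p = 0.0240) and Slc19a1 (-0.53, adjusted p = 0.0180) were called in opposite directions. Leaving out wild-type 1 or any of knockouts 1, 2 and 3 ended the call of Slc46a1 (adjusted p = 0.0513 to 0.0632). For Slc19a1 this held for wild-types 1, 2 and 4 and knockouts 1 and 2 (0.0505 to 0.0620). Slc46a1 was also not called when Xist signal entered the fit (adjusted p = 0.156) or in the arrays without Xist signal (0.164). Of the called genes named in these lists, 11 were not called once the 3' to 5' ratio entered the fit (adjusted p = 0.0749 to 0.501), namely Slc5a3, Slc5a5, Tkfc, Khk, Hk1, Fxyd3, Mlxipl, Klf4, Pcca, Slc19a1 and Slc46a1. In that fit the log2 fold change moved by over 1.5 times for Khk (0.53), Mlxipl (0.52) and Slc46a1 (0.75) and by less for the other 8.

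**Figure D5:**
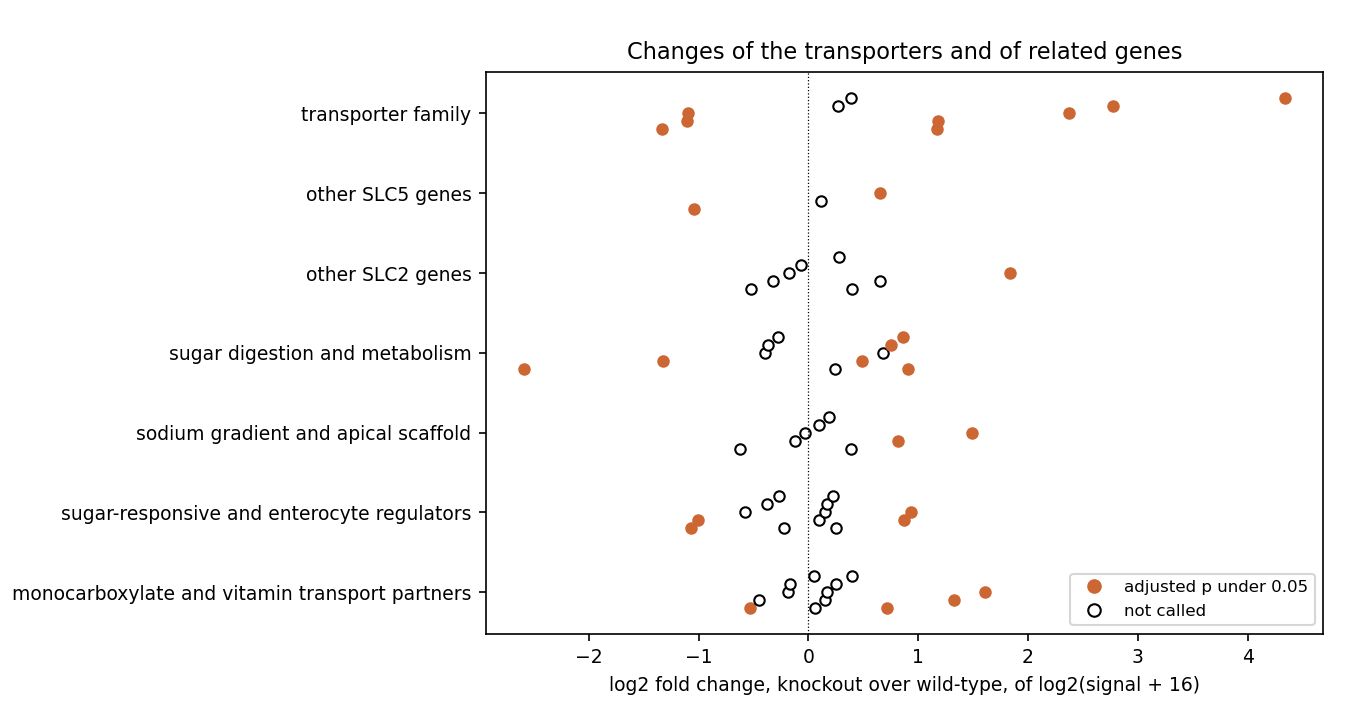
Log2 fold change, knockout over wild-type, of each transporter and of each tested gene in 6 related lists; filled points were called at an adjusted p under 0.05 and open points were not. The transporters reach from -1.33 to 4.34, while the other lists lie between -2.59 and 1.84.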

How the data were processed

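Per the labels' protocols, total RNA was copied from an oligo-dT primer, transcribed into biotin-labelled cRNA and hybridised to 1 array per sample. The authors deposited 1 signal intensity per probe set on a linear scale, and the values show scaling to a common trimmed mean of 150 per array. No source used here names the signal algorithm (not given in the sources used here). Detection calls were not used. No value column was without a sample.

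Signals were transformed as log2(signal + 16) with no further normalization (array medians differed by 0.158 at most). After removal of control probe sets 45037 were left, and the dimmest 40% of these by mean (under about 23 in signal) were set aside. R 4.3.3 and limma 3.58.1 fitted the others (lmFit, eBayes with trend, genotype as the only term, two-sided, Benjamini-Hochberg), checked on simulated data. A gene was represented by its probe set with the highest mean. Platform symbols were checked against RefSeq by Entrez ID (34754 of 34958 matched), 932 probe sets had several symbols and 9211 none. Exact permutation tests were two-sided. Every member is named, and of each related list up to 4 called genes with the smallest p; other genes were named after their values were seen. Members, lists and tests were chosen with earlier results of these data known. Number of arrays limits the precision.

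Alternatives were other filters, offsets of 1 and 64, quantile normalization, no trend, array weights, covariates, the replicate number as a block, the mean over a gene's probe sets and arrays left out. The smooth muscle covariate was added after the data were seen.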

Additional observations from a re-analysis of the deposited data

Results flagged for a closer look

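The s_at probe set of Slc5a9, a type that can match several transcripts, gave a signal of 8 in knockout replicate 4, far below the 47 to 48 of the other knockouts. Its gap to the nearest of them was 0.984 of the group's range, above Dixon's 95% critical value for 4 samples. Of 30 groups of 4 arrays examined this was the only 1 past that value, and chance puts about 1 in 20 groups there. The other Slc5a9 probe sets gave 26 to 57 in that array, and the cause was not tested.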

How the results depend on the processing

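The number of transporters called as higher was 5 in all fits that left out 1 array, and 4 or 5 under the other alternatives except a 60% filter on low signals, which removed Slc5a4a, Slc5a8 and Slc5a9 and left 3. The number called as lower was 2 or 3 throughout. No called transporter changed sign in any alternative. Counts over all probe sets moved more. With the replicate number as a block 751 probe sets were higher and 1164 lower, against 1427 and 1811 without it. Same-numbered samples did not deviate together (correlations of -0.274 to -0.011), so the block only shares a number, and with it Slc2a2 (adjusted p = 0.0958) and Slc5a8 (0.0617) were not called. Array weights gave 2631 higher. The Xist covariate gave 755 higher, the arrays without Xist signal 820, and the 3' to 5' covariate 466 higher and 916 lower. Leaving out 1 array at a time gave 880 to 2082 higher, with 918 without wild-type replicate 1 and 880 without knockout replicate 2. The cause of these shifts was not tested. The within-array shifts of the 7 called pairs kept their direction with other offsets and arrays left out, where 4 against 3 arrays cannot give an exact p under 0.0571. Signals of Slc5a12 in wild-types, and of Slc5a8 in both genotypes, are too dim for a firm size of change.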
